A study of Mus musculus with 36 samples.

Results

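Zscan4c, Zscan4d, Zscan4f, Tcstv1, Tcstv3, Usp17le, Pramel6 and Pramel7 are 8 genes of multicopy mouse families, and most of them are known from the 2-cell embryo and from the rare 2-cell-like cells of embryonic stem cell cultures. They were taken by symbol from the RNA-seq gene tables of a study of the TET dioxygenases, which list 19426 genes in all. The table of embryonic stem cells (ESCs), with 17036 genes, lists 6 of the 8: Pramel6, Pramel7, Zscan4c, Zscan4d, Zscan4f and Usp17le. The table of neural stem cells (NSCs), with 17771 genes, lists 0 of the 8. Tcstv1 and Tcstv3 are listed in neither table and have no value here.

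The cells compared were Tet triple-knockout (TKO) and Tet wildtype (WT) ESCs, and NSCs derived from each. TKO cells carry mutations of Tet1, Tet2 and Tet3, and both genotypes are male V6.5 cells, a mouse line of mixed 129/C57BL/6 background. In each cell type RNA was sequenced from 2 TKO and 3 WT samples, and promoter capture Hi-C, which records contacts of captured promoters, was done on 1 TKO and 1 WT NSC library. ESCs had been grown with feeder cells, were parted from them by preplating for 45 minutes, and were then kept without feeders in serum-based LIF medium for 24 hours; NSCs were collected on day 6 at passage 1. TKO replicates 1 and 2 carry separate line codes, and the same codes recur in ESCs and NSCs. Whether the 3 WT samples of a cell type came from separately derived lines or from cultures of 1 line was not settled by the labels, so the p-values measure the spread between these samples.

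In the 2-cell embryo the zygotic genome is switched on, and ZSCAN4, TCSTV and USP17-like transcripts are among its marks. A small share of ESCs passes through a similar state, in which ZSCAN4, a nuclear protein with a SCAN domain and zinc fingers, is linked to telomere lengthening and to a passing loss of DNA methylation. PRAMEL7 and PRAMEL6 are leucine-rich-repeat proteins of the inner cell mass and ESCs, and PRAMEL7 is known to bring UHRF1, the cofactor of the maintenance methyltransferase DNMT1, to a CUL2 ubiquitin ligase. TET enzymes oxidise 5-methylcytosine at CpG sites, which are therefore marked in the promoter sequences that follow.

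The 250 bases before the annotated start of each listed gene with an entry in the RefSeq promoter table (build GRCm38.p6, which is mm10) are given 5′ to 3′ on the gene's own strand, with CpG sites in capitals. They are shown because the Zscan4 copies, of which Zscan4c fell in TKO ESCs, have near-identical promoters, while those of Pramel6 and Pramel7, which rose, are dissimilar. Pramel6 (chr2:87506315-87506564, plus strand) and Pramel7 (chr2:87492419-87492668, minus strand) form a divergent pair on chromosome 2. Zscan4c (chr7:11005495-11005744, plus strand), Zscan4d (chr7:11166149-11166398, minus strand) and Zscan4f (chr7:11397665-11397914, plus strand) lie in the Zscan4 cluster of chromosome 7.
Pramel6: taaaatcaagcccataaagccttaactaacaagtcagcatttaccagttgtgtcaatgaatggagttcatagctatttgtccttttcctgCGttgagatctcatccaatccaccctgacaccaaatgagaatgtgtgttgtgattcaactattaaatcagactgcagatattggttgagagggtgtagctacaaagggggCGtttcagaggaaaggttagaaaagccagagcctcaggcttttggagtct
Pramel7: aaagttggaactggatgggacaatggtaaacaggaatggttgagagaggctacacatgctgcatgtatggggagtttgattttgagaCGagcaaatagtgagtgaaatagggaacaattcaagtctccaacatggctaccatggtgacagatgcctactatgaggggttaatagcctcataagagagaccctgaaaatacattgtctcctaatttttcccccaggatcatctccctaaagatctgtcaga
Zscan4c: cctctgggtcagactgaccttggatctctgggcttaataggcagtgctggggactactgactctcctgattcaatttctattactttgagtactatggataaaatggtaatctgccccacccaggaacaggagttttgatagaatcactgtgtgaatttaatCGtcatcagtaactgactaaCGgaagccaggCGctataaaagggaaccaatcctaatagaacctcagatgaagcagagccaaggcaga
Zscan4d: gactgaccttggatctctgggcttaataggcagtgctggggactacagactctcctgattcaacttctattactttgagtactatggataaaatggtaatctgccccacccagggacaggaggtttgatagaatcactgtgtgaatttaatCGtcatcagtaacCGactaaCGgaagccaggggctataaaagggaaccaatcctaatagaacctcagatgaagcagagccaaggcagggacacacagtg
Zscan4f: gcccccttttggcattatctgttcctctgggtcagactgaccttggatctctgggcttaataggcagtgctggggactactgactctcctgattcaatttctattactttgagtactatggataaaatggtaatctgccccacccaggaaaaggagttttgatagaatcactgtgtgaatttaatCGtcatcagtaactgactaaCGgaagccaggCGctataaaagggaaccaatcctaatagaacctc

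All 5 promoters were poor in CpG sites. Zscan4c, Zscan4d and Zscan4f held 3 each, Pramel6 held 2 and Pramel7 held 1, where the median over 32851 mouse promoters of the same length was 6, and 37.8% of those promoters held 3 or fewer. The sequences were aligned globally with free end gaps, and identity was counted over the aligned bases. It was 97.1% over 239 bases for Zscan4c and Zscan4d, and 99.6% over 227 bases for Zscan4c and Zscan4f. For Zscan4d and Zscan4f it was 96.8% over 216 bases. Pramel6 and Pramel7 aligned over 70 bases only in this way, with an identity of 62.9%, and a best local match was not sought. The letters TATAAA, searched on both strands, began at position -54 from the start of Zscan4c, -65 from that of Zscan4d and -31 from that of Zscan4f, and occurred in 12.4% of all promoters. The letters TGATTCAA, chosen after reading these sequences, occurred in Zscan4c, Zscan4d, Zscan4f and Pramel6, and in 0.539% of all promoters. They began at positions -184, -195, -161 and -110 from the starts of these genes and did not overlap TATAAA. A match of letters is a description and says nothing about binding.

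**Figure D1:**
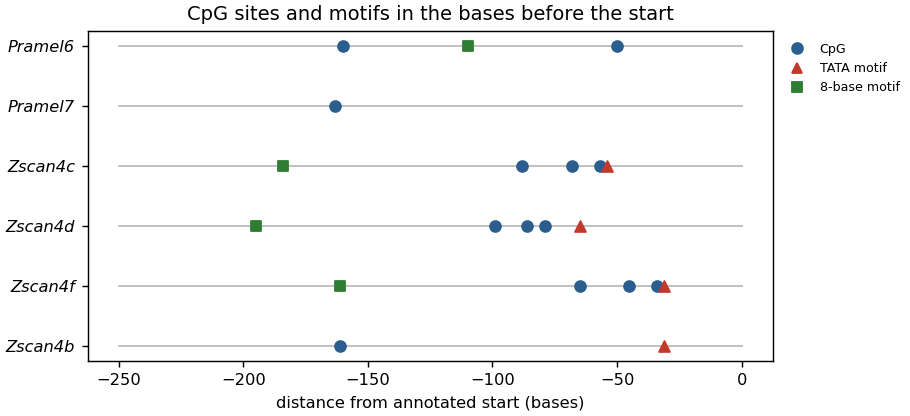
Position of CpG sites (circles), the TATA motif (triangles) and the 8-base motif TGATTCAA (squares) in the 250 bases before the annotated start of 5 genes described and of Zscan4b, in bases from the start. Zscan4b, another copy of the cluster, has 1 CpG site, the TATA motif at the same position as Zscan4f, -31, and no 8-base motif.

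The RNA values are read counts per gene divided by a size factor per library (normalised counts), deposited in a separate table for each cell type. The 10 libraries held 41.0 M to 49.1 M reads in genes, and the 6 listed genes had between 4 and 139 reads in a library, so that counting error limits each value. Even numbers made up 75.2% to 82.7% of the low values (20 reads or fewer), as when both mates of a pair are counted, so the number of sequenced fragments may be nearer to 1 per 2 reads. In TKO ESCs the Tet1, Tet2 and Tet3 genes themselves were lower (log2 fold changes of -1.17, -0.56 and -1.23; limma adjusted p = 2.45e-06, 0.00513 and 0.00163), in the direction of the labels, though Tet2 missed the threshold without TKO replicate 2 (0.0539). In TKO NSCs Tet1 and Tet3 were lower (log2 fold changes of -0.47 and -0.73; limma adjusted p = 0.032 and 1.6e-05), but Tet1 lost its call in 6 of 16 alternatives. Tet2 did not follow the labels in NSCs, with 1351 ± 289 normalised counts in TKO NSCs and 1212 ± 127 in WT NSCs (SD, n = 2 and 3; log2 fold change 0.14, limma adjusted p = 0.459). The NSC results rest on the libraries labelled TKO and WT. Of 8 ESC marker genes all were listed and 6 were higher in TKO ESCs, where 7.29% of all genes tested were called higher and 7.02% lower. Of 9 listed feeder fibroblast markers 0 changed, and their summed normalised count was 5579 to 9078 in TKO ESCs and 6295 to 7369 in WT ESCs. Of 8 trophoblast and endoderm markers 1, Foxa2, was lower in TKO ESCs.

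Pramel6 and Pramel7 rose in TKO ESCs and Zscan4c fell. They were 3 of the 5 genes that passed the filter of a mean normalised count of at least 10, namely 2 higher and 1 lower, and over all 17033 genes tested 7.29% were called higher and 7.02% lower. All 5 had a mean above 10 in each genotype on its own. Usp17le, with a mean of 9.95, missed the filter. Calls rest on limma with a trend, on log2(normalised count + 1), at an adjusted p under 0.05 over all genes tested, and fold changes are on that scale, where the pseudocount shrinks the change of genes with few reads but the mean of logs can also lie further from 0 than the ratio of means.

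Pramel7 had 146 and 125 normalised counts in TKO ESC replicates 1 and 2, against 11.4, 13.1 and 44.3 in WT ESC replicates 1, 2 and 3. Both TKO libraries stood above every WT library, as was so for 21.9% of all genes tested, and WT replicate 3 stood above the other WT libraries. The means were 135 ± 14.6 in TKO ESCs and 22.9 ± 18.5 in WT ESCs (SD, n = 2 and 3), a ratio of 5.90. The log2 fold change was 2.77 (SE 0.58, 95% interval 1.54 to 4.00, limma adjusted p = 0.00376), the 60th highest of all genes tested.

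Pramel6, the neighbour of Pramel7, had 90.1 and 78.8 normalised counts in TKO ESC replicates 1 and 2, against 19.1, 26.1 and 11.1 in WT ESC replicates 1, 2 and 3. Here too both TKO libraries stood above every WT library, as for 21.9% of all genes tested. But WT replicate 3, the highest WT library for Pramel7, was the lowest for Pramel6. The means were 84.5 ± 7.98 in TKO ESCs and 18.8 ± 7.54 in WT ESCs (SD, n = 2 and 3), a ratio of 4.50. The log2 fold change was 2.19 (SE 0.57, 95% interval 0.99 to 3.39, limma adjusted p = 0.0152), the 140th highest. Summed, the pair had 236 and 204 normalised counts in the TKO ESC libraries, against 30.5, 39.2 and 55.4 in the WT ESC libraries, a ratio of 5.27. The edgeR adjusted p on recovered reads was 0.00495 for Pramel7 and 0.0145 for Pramel6. Without TKO replicate 1 the limma adjusted p was 0.0612 for Pramel7 and 0.127 for Pramel6, and without TKO replicate 2 it was 0.0562 and 0.122, while the fold changes stayed within 2.09 and 2.88.

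Zscan4c had 21.0 and 17.3 normalised counts in TKO ESC replicates 1 and 2, against 76.3, 40.2 and 84.6 in WT ESC replicates 1, 2 and 3. Both TKO libraries stood below every WT library, as was so for 21.6% of all genes tested. The WT libraries differed among themselves, with replicate 2 the lowest. The means were 19.1 ± 2.58 in TKO ESCs and 67.0 ± 23.6 in WT ESCs (SD, n = 2 and 3), a ratio of 0.285. The log2 fold change was -1.69 (SE 0.53, 95% interval -2.81 to -0.58, limma adjusted p = 0.0401; edgeR adjusted p = 0.0462). The call was lost without WT replicate 1 (limma adjusted p = 0.12), WT replicate 3 (0.164), TKO replicate 1 (0.0824) or TKO replicate 2 (0.168), and with each chromosome centred on its own median (0.0547). In bulk RNA of this kind, fewer 2-cell-like cells and less RNA per such cell cannot be told apart.

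Zscan4f, a near copy, had 19.9 and 17.3 normalised counts in the TKO ESC libraries, against 33.4, 30.2 and 22.1 in the WT ESC libraries. Both TKO values lay below every WT value, as was so for 21.6% of all genes tested, and the log2 fold change of -0.58 (SE 0.64, 95% interval -1.92 to 0.77) did not pass the test (limma adjusted p = 0.612). Zscan4d had 41.9 and 3.84 normalised counts in TKO ESC replicates 1 and 2, against 59.1, 28.1 and 34.2 in WT ESC replicates 1, 2 and 3. Of the 6 listed genes this copy showed the widest gap between the TKO lines as a ratio, with 40 and 4 reads, and TKO replicate 1 lay among the WT libraries. Its log2 fold change of -1.46 (SE 0.81, 95% interval -3.16 to 0.25) did not pass the test either (limma adjusted p = 0.263), and the value turned on the TKO library kept: it was 0.12 without TKO replicate 2 and -3.03, past the threshold (limma adjusted p = 0.0388), without TKO replicate 1.

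Usp17le, a deubiquitinase gene of the USP17-like family, had 4.19 and 7.69 normalised counts in the TKO ESC libraries, against 24.8, 5.03 and 8.05 in WT ESC replicates 1, 2 and 3. Only WT replicate 1 stood apart, and the other libraries overlapped. With no filter its log2 fold change was -0.74 and did not pass the test (limma adjusted p = 0.723).

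**Figure D2:**
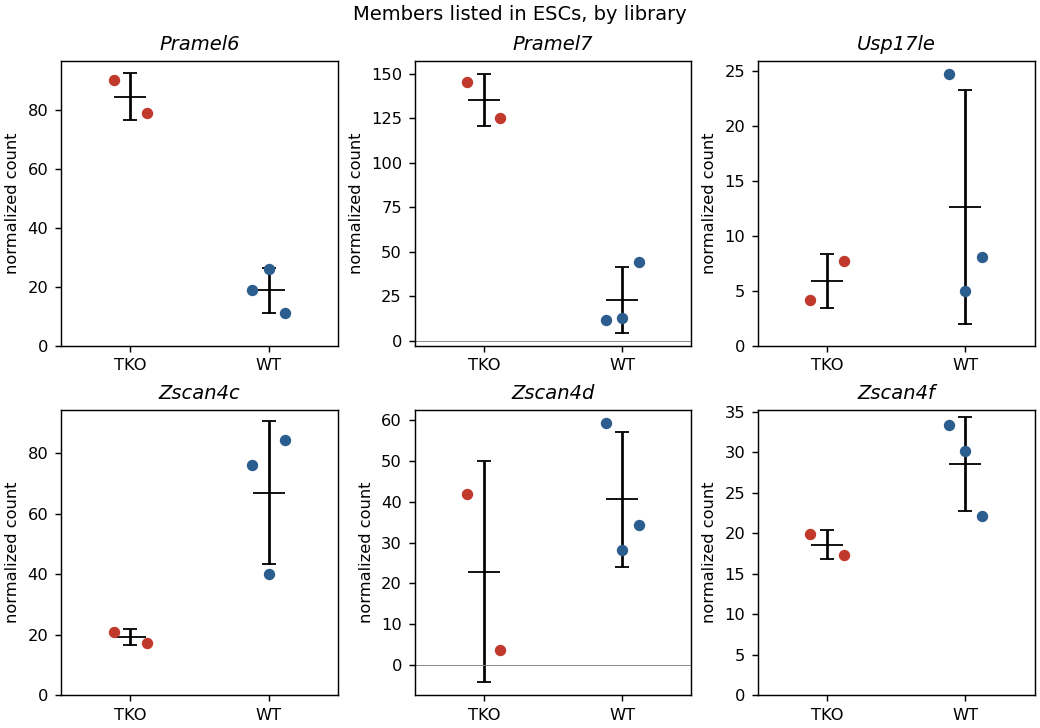
Normalised count (vertical axis, linear) of the 6 listed genes in each ESC library, TKO (red, n = 2) left of WT (blue, n = 3), with the mean (line) and SD (bar). For Pramel6 and Pramel7 the TKO points lie above all WT points, for Zscan4c and Zscan4f they lie below, and for Zscan4d and Usp17le the genotypes overlap.

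The ESC table lists 11 further genes of the same families, 6 of them copies of Zscan4 so that 9 copies are listed in all, and reads of near-identical copies may be assigned to one another. Of the 11, 3 were higher and 1 lower in TKO ESCs, where 7.29% of all genes tested were called higher and 7.02% lower. The 6 further Zscan4 copies passed the filter through the WT libraries, with TKO means below 10. A gene at such TKO levels could be tested only where WT was higher. The direction of these copies, their p-values and the 1 lower call, Zscan4a, are therefore a description. Zscan4a, annotated by RefSeq as a transcribed pseudogene, fell to 6.29 and 1.92 normalised counts in the TKO ESC libraries, against 55.3, 24.1 and 88.6 in the WT ESC libraries (log2 fold change -3.44, SE 0.80, limma adjusted p = 0.00754). Its call was lost without WT replicate 3 (limma adjusted p = 0.0783) or TKO replicate 2 (0.0637). Zscan4b had 2.10 and 1.92 in the TKO ESC libraries, against 34.3, 21.1 and 14.1 in the WT ESC libraries, with a limma adjusted p of 0.0644 and an edgeR adjusted p of 0.0394. The entries Zscan4-ps1, Zscan4-ps2 and Zscan4-ps3 had log2 fold changes of -2.77, -1.99 and -1.99 and did not pass the limma test (adjusted p = 0.0956, 0.126 and 0.0953). Zscan4e had 4.19 and 7.69 normalised counts in the TKO ESC libraries and 45.8, 0 and 36.2 in the WT ESC libraries, with a log2 fold change of -0.84 (SE 1.43, limma adjusted p = 0.758) that was 0.14 without WT replicate 1.

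A sum over the listed copies does not depend on how a read was divided among them, though it does on reads that were dropped, counted more than once or given to copies that are not listed. The 9 Zscan4 copies together had 112 and 67.3 normalised counts (107 and 70 reads) in the TKO ESC libraries. In WT ESC replicates 1, 2 and 3 they had 373, 228 and 383 (391, 227 and 380 reads). The genotypes did not overlap, where 21.6% of all genes tested had every TKO library below every WT library. The mean was 89.7 ± 31.7 in TKO ESCs and 328 ± 86.5 in WT ESCs (SD, n = 2 and 3), a ratio of 0.274. The copies other than Zscan4c, Zscan4d and Zscan4f passed the filter through the WT libraries, so their part of this sum is a description. Zscan4c, Zscan4d and Zscan4f alone summed to 82.8 and 38.4 in the TKO ESC libraries, against 169, 98.5 and 141 in the WT ESC libraries, a ratio of 0.445. There too no TKO value reached a WT value, but the gap between TKO replicate 1 and WT replicate 2 was small.

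**Figure D3:**
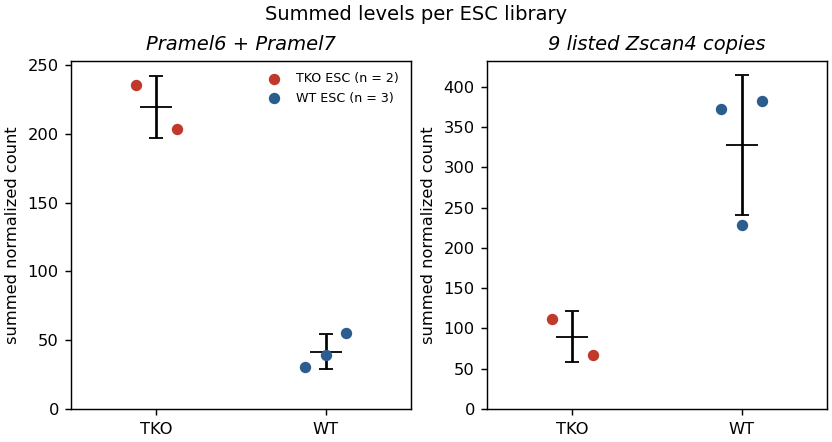
Summed normalised count of Pramel6 and Pramel7 (left) and of the 9 listed Zscan4 copies (right) in each ESC library, TKO (red, n = 2) left of WT (blue, n = 3), with mean and SD, on axes that start at 0. The pair has a TKO over WT ratio of 5.27 and the Zscan4 copies one of 0.274, and neither sum overlaps between genotypes. Zscan4 copies other than Zscan4c, Zscan4d and Zscan4f passed the filter through the WT libraries. Those 3 alone have a ratio of 0.445.

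On the side of the PRAME family, which in the mouse holds many leucine-rich-repeat genes of germ cells and early embryos, Pramel1 on chromosome 4 rose. It had 115 and 88.4 normalised counts in the TKO ESC libraries, against 51.5, 22.1 and 16.1 in the WT ESC libraries (log2 fold change 1.89, SE 0.54, limma adjusted p = 0.025). As for Pramel6 and Pramel7, the call was lost without TKO replicate 1 (limma adjusted p = 0.181) or TKO replicate 2 (0.119), and also without WT replicate 2 (0.0514) or WT replicate 3 (0.0684). Its promoter held 18 CpG sites, many more than those of Pramel6 and Pramel7. Pramef12 (log2 fold change 0.69, limma adjusted p = 0.00347) and Pramef8 (0.50, limma adjusted p = 0.0201) rose by less. Pramef12 lost its call without TKO replicate 1 (limma adjusted p = 0.0577), and Pramef8 lost it without WT replicate 2 or 3 or either TKO library (limma adjusted p = 0.0611 to 0.145). Pramef12os had 35.6 and 9.61 normalised counts in the TKO ESC libraries and 1.91, 4.02 and 8.05 in the WT ESC libraries. It passed the filter through the TKO libraries, with a WT mean of 4.66, and did not pass the test (limma adjusted p = 0.289). Usp17lc, a relative of Usp17le, had 8.38 and 13.5 in the TKO ESC libraries and 17.2, 4.02 and 10.1 in the WT ESC libraries (limma adjusted p = 0.922).

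**Figure D4:**
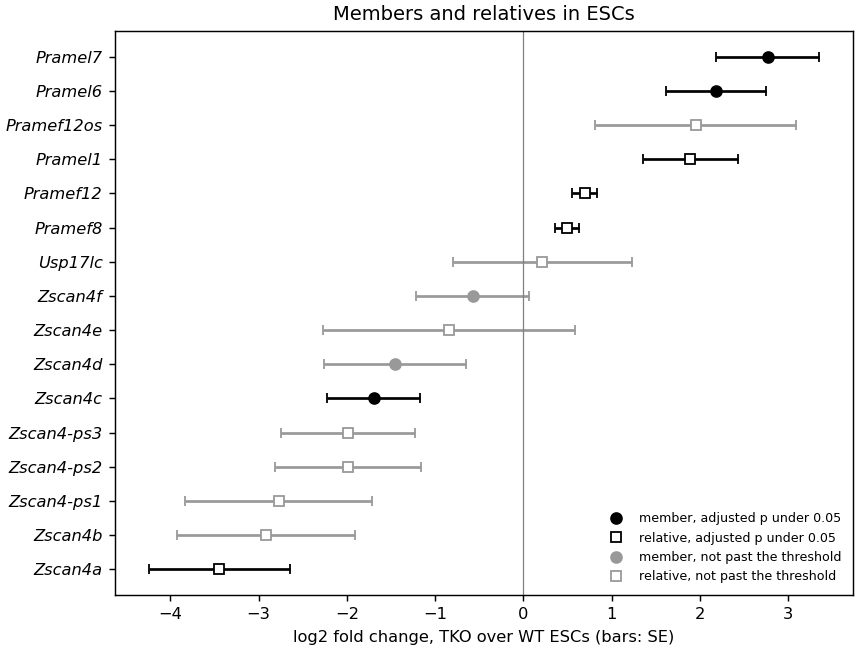
Log2 fold change of TKO over WT ESCs (horizontal axis, bars are SE) of the 5 genes tested (circles) and of 11 relatives of their families (squares), in black where the limma adjusted p is under 0.05. The values run between -3.44 for Zscan4a and 2.77 for Pramel7, and all 9 Zscan4 copies lie left of 0. Zscan4 copies drawn as squares passed the filter through the WT libraries, and Pramef12os through the TKO libraries, so their side of 0 is a description.

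The rest of the 2-cell-like program was described from a list of 65 further genes, of which the ESC table lists 19. Of these 1 was higher, Pramef8, and 1 lower, Zscan4a. The median log2 fold change was -0.74, against 0.01 over all genes tested. However, 6 of the 19, Zscan4a among them, are Zscan4 copies that passed the filter through the WT libraries. They could be tested only where WT was higher, so the lower call and the median are a description. Obox6, an oocyte-specific homeobox gene, was the highest of the list at 4.09 without passing the test (limma adjusted p = 0.0628). Dux, the double homeobox factor that switches the program on, is listed in neither table. Of 5 listed activators of the state 1 rose and 1 fell. Over all genes tested 7.29% were called higher and 7.02% lower, and the counts of these 2-cell-like and activator lists are a description. Dppa2 and Dppa4, a pair of SAP-domain chromatin proteins, had log2 fold changes of 0.23 and -0.05 and did not pass the test (limma adjusted p = 0.16 and 0.792). Tbx3 rose by 0.42 (limma adjusted p = 0.0178), and Nelfa, a subunit of the negative elongation factor, fell by 0.35 (log2 fold change -0.35, limma adjusted p = 0.0143). Tbx3 lost its call without TKO replicate 1 (limma adjusted p = 0.178) and Nelfa without TKO replicate 2 (0.128).

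Of 24 genes that restrain the 2-cell-like state, all listed in ESCs, 1 was higher and 3 were lower in TKO ESCs, with a median log2 fold change of -0.02. Over all genes tested 7.29% were called higher and 7.02% lower, and the count of this list is a description. Rybp, of the variant PRC1 complexes, rose to 6209 ± 225 normalised counts in TKO ESCs, against 4044 ± 517 in WT ESCs (SD, n = 2 and 3; log2 fold change 0.63, limma adjusted p = 0.000784). Ehmt1, which encodes the histone methyltransferase GLP, Zmym2 and Smchd1 fell, with log2 fold changes of -0.43, -0.35 and -0.40 (limma adjusted p = 0.00581, 0.0326 and 0.0459). Without TKO replicate 1 each of these 3 missed the threshold (limma adjusted p = 0.0597, 0.161 and 0.392), and other left-out libraries ended the calls of Zmym2 (WT replicate 1 or 2, TKO replicate 2) and Smchd1 (WT replicate 1 or 2). Centring the chromosomes ended both (limma adjusted p = 0.0973 for Zmym2 and 0.0743 for Smchd1), and Smchd1 also missed the threshold with edgeR (adjusted p = 0.0529) and with a pseudocount of 0.5 (0.0501). Among 11 listed genes of the UHRF1, CUL2 ligase and LIF pathways around PRAMEL7, 3 rose and 0 fell, beside the same shares over all genes. Lifr, the LIF receptor, rose to 3176 ± 241 normalised counts in TKO ESCs, against 1974 ± 142 in WT ESCs (SD, n = 2 and 3; log2 fold change 0.69, limma adjusted p = 0.000465). Klf4 rose by 0.41 (limma adjusted p = 0.00166). Socs3, the feedback inhibitor of LIF signalling on chromosome 11, rose by 0.38 (limma adjusted p = 0.00565), but stood at -0.014 (limma adjusted p = 0.942) once each chromosome was centred, and missed the threshold without WT replicate 2 (0.0533) or TKO replicate 2 (0.0701). Uhrf1, Dnmt1 and Cul2 had log2 fold changes of -0.02, -0.08 and -0.18 and did not pass the test (limma adjusted p = 0.916, 0.562 and 0.25).

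Genes of the most similar pattern were named by the root mean square difference of log2 values, centred on each gene's mean, over the 5 ESC libraries. Nearest to Pramel7 among 17028 genes were Acp7 (0.0922), Gtsf1 (0.212), Megf11 (0.277), 4930591A17Rik (0.339) and Kng1 (0.37). Acp7, an acid phosphatase gene, had 62.9 and 49.0 normalised counts in the TKO ESC libraries and 3.82, 4.02 and 17.1 in WT ESC replicates 1, 2 and 3. WT replicate 3 was the highest of its genotype, as for Pramel7, whose pattern Acp7 was picked to match. Gtsf1, known from piRNA silencing in germ cells, had 43.0 and 39.4 in the TKO ESC libraries and 1.91, 4.02 and 11.1 in the WT ESC libraries. Nearest to the Zscan4 sum among 17022 genes were 9330159M07Rik (0.158), D630039A03Rik (0.176), Spatc1 (0.191), Fgf15 (0.199) and Peg13 (0.214). Fgf15, a secreted growth factor gene, had 159 and 136 normalised counts in the TKO ESC libraries, against 615, 450 and 581 in the WT ESC libraries. For Usp17le the nearest were Gm49980 (0.136), Vmn2r-ps108 (0.199), Gm31805 (0.201), B3gat1 (0.211) and 4732440D04Rik (0.217), each highest in WT replicate 1. Likeness over 5 libraries that share their depth and genotype is a description, and shared peaks follow from how the genes were picked.

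None of the listed genes beside the clusters passed the test. Within 500 kb of the Zscan4 cluster (chr7:10794241-11402318) the ESC table lists Zik1 and Gm6900, with log2 fold changes of -0.08 and 0.19 that did not pass the test (limma adjusted p = 0.809 and 0.853). Around Usp17le 6 genes are listed and 0 were called, with values between -1.10 and 0.40. Within 500 kb of Pramel6 and Pramel7 no other listed gene with a RefSeq position was found; 15925 of the 17036 genes in the ESC table have one. The median log2 fold change was 0.02 over the genes tested on chromosome 2 and -0.04 over those on chromosome 7.

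NSCs gave no level for any of the 8 genes, since the table does not list them. The lowest total of a listed gene was 51 reads over the 5 libraries of a table, and a gene that is not listed has no value from which a level or a limit could be drawn. Of the 11 relatives only Pramef8 is listed in NSCs, with 1144 and 1118 normalised counts in the TKO NSC libraries, against 985, 1046 and 939 in the WT NSC libraries (log2 fold change 0.19, SE 0.10, limma adjusted p = 0.173, where 37.7% of all genes were called). Its TKO effect in NSCs less that in ESCs was -0.30 (limma adjusted p = 0.23, where 20.7% of genes were called). With both tables scaled together, Pramef8 fell in NSCs relative to ESCs, by 0.66 in TKO cells and by 0.35 in WT cells (log2 fold changes of -0.66 and -0.35, limma adjusted p = 0.000387 and 0.00873; 34.8% and 37.5% of all genes were called lower). With equal totals per library neither passed (limma adjusted p = 0.0784 in TKO cells and 0.871 in WT cells).

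Regulators of the program are listed in NSCs, though reads of Dppa2 were absent and those of Dppa4 few in WT NSCs. Dppa2 had 56.0 and 33.2 normalised counts in the TKO NSC libraries and 0 reads in each of the 3 WT NSC libraries, and passed the filter through the TKO libraries alone. Dppa4 rose to 88.2 and 46.8 in the TKO NSC libraries, against 4.13, 15.2 and 11.7 in the WT NSC libraries (log2 fold change 2.68, SE 0.70, limma adjusted p = 0.0107, and 0.115 without TKO NSC replicate 1). Beside these, 4 of 8 ESC markers were higher and 1 was lower in TKO NSCs, and 8 of 10 NSC markers were lower. Of the feeder fibroblast markers 8 of 10 were higher and 1 was lower. Over all genes tested in NSCs 37.7% were called in either direction. The summed level of the fibroblast markers was 123305 to 144571 in TKO NSCs and 48270 to 61052 in WT NSCs, and its part in these results was not tested. Rybp rose in TKO NSCs as well (log2 fold change 0.91, limma adjusted p = 2.57e-05), as did Lifr (0.79, limma adjusted p = 0.000174) and Stat3, the LIF signal transducer on chromosome 11 (0.77, limma adjusted p = 4.62e-05, and 0.0689 with chromosomes centred). Dnmt1, Elob, Eloc and Usp7 fell in TKO NSCs, with log2 fold changes of -0.19, -0.28, -0.21 and -0.22 (limma adjusted p = 0.0348, 0.00552, 0.0265 and 0.0134). Dnmt1 lost its call in 9 of 16 alternatives, among them edgeR (adjusted p = 0.0509), equal totals (0.0896), chromosomes centred (0.071) and leaving out WT NSC replicate 1 or 3 or either TKO NSC library (limma adjusted p = 0.102 to 0.13). Eloc lost it with equal totals (0.0595), with chromosomes centred (0.0592) and without WT NSC replicate 1 or 2 or either TKO NSC library (0.065 to 0.0894), and Usp7 without TKO NSC replicate 2 (0.085).

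Promoter contacts around these genes were counted in NSCs. The deposited lists hold 58145 loops in the TKO library and 59754 in the WT library, all with a score of at least 5 as the authors' caller gave it. Of these 1 TKO loop had an anchor on Pramel6 and 1 WT loop had one on Pramel7. The TKO loop joined chr2:87506921-87512120 to chr2:87974514-87979804 with a score of 6.28, and the WT loop joined chr2:87491661-87496738 to chr2:87901309-87906842 with a score of 5.28. Within 100 kb of any of the 8 genes 9 loops had an anchor in TKO NSCs and 14 in WT NSCs. By Pramel6 and Pramel7 there were 4 in TKO NSCs and 4 in WT NSCs, and by Usp17le 5 in TKO NSCs and 10 in WT NSCs. The listed Zscan4 genes and the Tcstv genes had 0 in either library. With 1 library per genotype these counts have no replicate check, and no source used here says whether the promoters of these genes were captured.

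**Figure D5:**
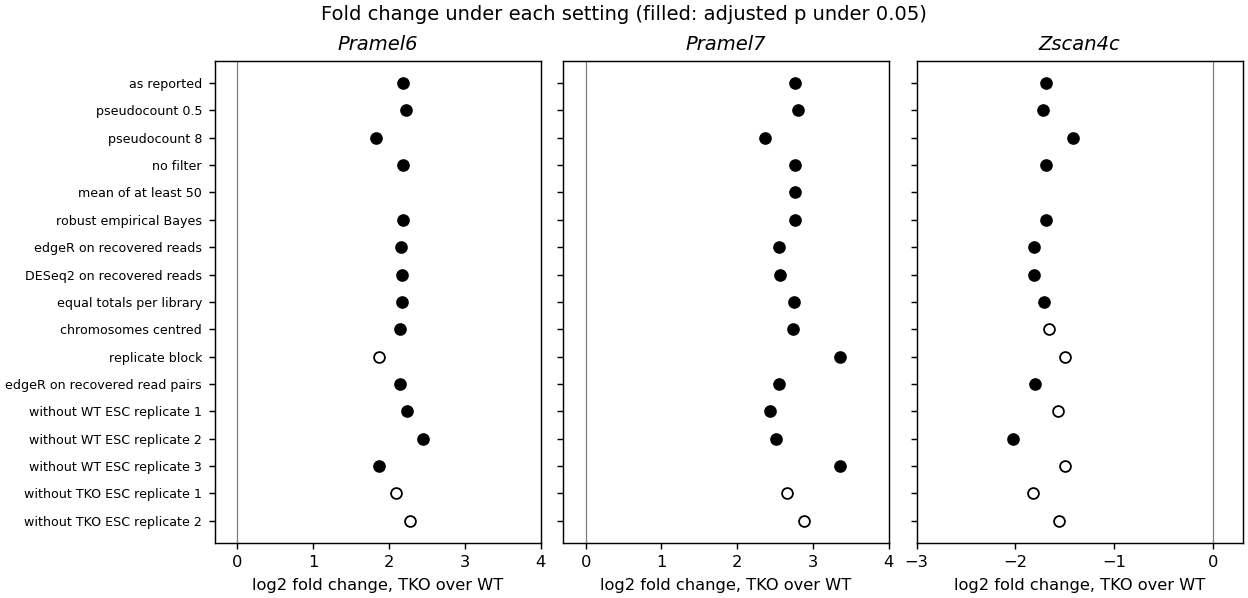
Log2 fold change of TKO over WT ESCs of Pramel6, Pramel7 and Zscan4c under each processing setting and with each library left out, filled where the adjusted p is under 0.05. The direction holds throughout, with 1.83 to 2.45 for Pramel6, 2.36 to 3.36 for Pramel7 and -2.02 to -1.42 for Zscan4c, and open points stand for the settings that end a call. Pramel6 and Zscan4c have no point at a mean of at least 50, since they miss that filter.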

How the data were processed

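RNA was measured in 10 libraries (2 TKO and 3 WT samples in each of ESCs and NSCs) and promoter contacts in 1 TKO and 1 WT NSC library. The submitters' processing notes name DESeq2 1.40.2, featureCounts, STAR 2.7.3a and Trim Galore 0.6.5, and the mm10 build. The deposited RNA values are a signal, namely counts over DESeq2 size factors per the labels, with ESCs and NSCs normalised apart. Each value was a whole multiple of its library's step (100% within 1e-06), which gives back reads, 20.5 M to 24.5 M as pairs. 0 columns were unused. The deposited loop lists give a score per loop, as the authors' caller wrote it.

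Genes with a mean of at least 10 were tested with limma 3.58.1 (R 4.3.3; trend, two-sided, genotype only, 5 libraries of a table) on log2(value + 1), with Benjamini-Hochberg adjustment over all genes tested and calls under 0.05. Cell types were compared in an interaction contrast and, for levels, after scaling both tables together. Alternatives were pseudocounts of 0.5 and 8, no filter, a mean of at least 50, robust variance, edgeR 4.0.16 and DESeq2 1.42.0 on recovered reads, equal totals, chromosomes centred, a replicate block, and leaving out each library. edgeR on read pairs was added after seeing the data. Scripts were tested on simulated data. The 8 genes, the lists and the tests were chosen with earlier results of these data known. Named were all 8 genes, all relatives by symbol, list genes past the threshold, the 5 genes most alike per pattern, and Tet1 to Tet3 as a check; Obox6, Foxa2, Uhrf1, Cul2, Zik1, Gm6900 and list genes that missed the threshold were named after their values were seen. Promoter sequences are RefSeq's, aligned with Biopython 1.88. Bisulfite and CUT&Tag data were not used here, and neither counting by strand nor the treatment of reads that match several copies is given in the sources used here.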

Additional observations from a re-analysis of the deposited data

Results flagged for a closer look

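The effect of TKO was not the same in NSCs as in ESCs, by a limma interaction contrast with adjustment over 15369 genes (20.7% called), for 6 of 38 tested regulators of the 2-cell-like state or of the pathways around PRAMEL7. That is 15.8%, no more than over all genes, so the count is no result about these regulators. For Dppa2, which is counted among the 6, the fitted difference, NSC effect less ESC effect, was 5.239 on the log2 scale. The WT NSC libraries had 0 reads and Dppa2 passed the filter in NSCs through the TKO libraries alone, so that this value depends on the pseudocount and carries no test. Dppa4 differed by 2.732 (limma adjusted p = 0.00266), with 2.68 in NSCs and -0.05 in ESCs. Stat3 differed by 0.6796 (limma adjusted p = 0.00382), with 0.77 in NSCs and 0.09 in ESCs. Ehmt1 differed by 0.4159 (limma adjusted p = 0.0228), with -0.02 in NSCs and -0.43 in ESCs, and Zmym2 by 0.4398 (limma adjusted p = 0.023), with 0.09 in NSCs and -0.35 in ESCs. Both lost the call without TKO ESC replicate 1 (limma adjusted p = 0.0824 and 0.0721) or without WT NSC replicate 1 (0.0567 and 0.0595), Ehmt1 also without WT NSC replicate 3 (0.0573) or TKO NSC replicate 2 (0.0878), and Zmym2 without TKO NSC replicate 1 (0.101). Klf4 differed by -0.6541 (limma adjusted p = 0.0016), with -0.24 in NSCs and 0.41 in ESCs. The 8 genes themselves could not be compared in this way, since the NSC table does not list them.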

How the results depend on the processing

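Of the listed genes in ESCs, the count called higher, 2 as reported, was 1 at a mean of at least 50 and ran between 0 and 2 with 1 library left out. The count called lower, 1 as reported, was 0 at a mean of at least 50 and with chromosomes centred, and ran between 0 and 1 with 1 library left out. The 2437 genes called in ESCs became 1108 to 2302 with 1 library left out, lowest without TKO ESC replicate 2, and the 3177 that differed between cell types became 2096 to 3307, lowest without TKO NSC replicate 1. A lone sample was then assumed to vary like the other group. Signs turned for Socs3 with chromosomes centred (-0.014), Zscan4e without WT ESC replicate 1 (between -2.64 and 0.14 with 1 library left out), Usp17lc without WT ESC replicate 2 (between -0.28 and 0.53) and Zscan4d without TKO ESC replicate 2 (between -3.03 and 0.12). At a loop score of at least 10 the loops near the 8 genes were 1 in TKO NSCs and 0 in WT NSCs. The causes were not tested, save that the stricter filters leave fewer genes or loops and the left-out libraries fewer samples.

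The replicate numbers did not pair the genotypes: deviations from the group means correlated at -0.11 and -0.05 in ESCs and at 0.06 and -0.02 in NSCs. With a replicate block, 1 gene was called higher and 0 lower, since Pramel6 (adjusted p = 0.061) and Zscan4c (0.122) missed the threshold in limma, and 1912 genes were called in ESCs. The fit of all 10 libraries together gave the 8 genes no value. Depth limits the low genes: Usp17le had 4 to 26 reads in a library.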
